A study of Mus musculus with 9 samples.

Results

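The small heat shock proteins of heart muscle were followed in cultured mouse heart cells through the RNAs of 7 genes, Hspb1, Hspb2, Hspb3, Hspb6, Hspb7, Hspb8 and Cryab. The genes were taken by their symbols, and these 7 are among 55401 annotated genes in the count table. All 7 were among the 16762 genes with enough counts to be tested. The cells were ventricular myocytes of wild-type C57BL/6J mice, isolated from pups at 1 day of age, and 3 libraries were made for each of 3 groups. Control cultures were kept at normal oxygen in DMEM with 10% FBS. The hypoxia cultures were held in a sealed low-oxygen chamber for 6 h in DMEM without glucose and without serum. The hypoxia + rSRGN cultures had the same 6 h and medium with recombinant serglycin (rSRGN), a proteoglycan core protein, added. Low oxygen, loss of glucose and loss of serum therefore cannot be told apart in any comparison with control. The labels do not say whether the replicates were separate cultures or litters, so the p-values measure the spread between these libraries, which may be technical.

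Small heat shock proteins share an alpha-crystallin domain, assemble into oligomers and hold unfolding proteins in a state that ATP-dependent chaperones can refold. They do not use ATP themselves. Heart and skeletal muscle hold more kinds of them than other tissues, and several bind the Z-disc, titin, desmin or filamin C, the parts of the myofibril that carry load. A few, Hspb1 among them, are induced by heat shock factor 1 (HSF1), whereas others follow the muscle program.

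Each library held between 16583985 and 22781557 counted fragments. The control libraries were deeper, with a median of 22472430 against 17434604 in hypoxia and 18772474 in hypoxia + rSRGN. The defining markers of cardiomyocytes were present in control, where 10 of them summed to between 45527 and 55062 CPM, counts scaled to libraries of equal size, and fell to between 3980 and 6008 CPM in hypoxia and 7746 to 8135 CPM in hypoxia + rSRGN. All 10 were lower in hypoxia than in control at an adjusted p below 0.05 and at least 1.5-fold, with a median log2 change of -3.70. Of 9 fibroblast markers, 6 rose and none fell, with sums of 8828 to 10409 CPM in control and 17353 to 20153 CPM in hypoxia. Macrophage markers fell in 6 of 6 cases, from sums of 223 to 237 CPM to sums of 24.2 to 26.8 CPM. Of 6 endothelial markers 5 fell, and of 6 markers of smooth muscle and pericytes 2 rose and 1 fell. No marker of these lists was at 0 in all libraries of a group. Mitochondrial rRNA, which lacks the long poly(A) tail of mRNA, took 0.195 to 0.239% of counts in control, 2.31 to 2.61% in hypoxia and 2.27 to 2.67% in hypoxia + rSRGN. The other mitochondrial genes took 8.10 to 9.27% in control and 2.56 to 3.46% in the hypoxic groups. In RNA from a mixed culture, fewer cells of a type and less RNA per cell cannot be told apart, and the part of these shifts in the results for the small heat shock proteins was not tested.

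The start regions of the genes are shown because HSF1 binds repeats of the unit GAA and its complement TTC, and the members differ in how many such pairs they hold. RefSeq windows of 300 bases, from 250 bases before to 50 after each start (GRCm38.p6), were matched for 5 of the 7 genes, with 6 starts in all. Hspb2 and Cryab were not matched. The letters GAANNTTC, which read the same on both strands, are in 7.86% of all 32851 windows. Capitals mark these letters in the sequences, which run 5′ to 3′ along the strand of the gene. The Hspb1 window holds 2 matches, from -117 to -110 and from -97 to -90 relative to the start, and the Hspb7 window holds 0.
Hspb1, chr5:135887669-135887918, plus strand: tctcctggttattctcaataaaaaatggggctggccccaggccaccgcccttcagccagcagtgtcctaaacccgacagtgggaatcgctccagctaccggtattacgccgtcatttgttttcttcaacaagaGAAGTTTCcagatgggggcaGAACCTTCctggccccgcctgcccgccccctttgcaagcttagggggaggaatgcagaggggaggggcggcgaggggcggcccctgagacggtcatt
Hspb7, chr4:141420529-141420778, plus strand: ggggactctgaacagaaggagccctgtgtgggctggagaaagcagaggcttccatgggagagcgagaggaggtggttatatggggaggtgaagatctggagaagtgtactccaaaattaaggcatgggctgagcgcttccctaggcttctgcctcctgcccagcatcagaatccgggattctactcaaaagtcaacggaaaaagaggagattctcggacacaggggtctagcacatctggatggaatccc

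The windows of Hspb3, Hspb8 and the second of the Hspb6 starts hold 1 match each, and 30 bases around it are shown to compare the letters between genes. It lies from -224 to -217 in Hspb3, from -120 to -113 in Hspb6 and just past the start, from 3 to 10, in Hspb8. The other Hspb6 window holds none.
Hspb3, chr13:113663882-113663911, minus strand: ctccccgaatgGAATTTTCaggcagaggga
Hspb6, chr7:30553170-30553199, plus strand: aagtaattattGAAGTTTCtaaataaggaa
Hspb8, chr5:116422844-116422873, minus strand: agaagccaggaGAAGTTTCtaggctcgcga

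The order TTCNNGAA, which shares its 3-letter units with the other motif and is in 8.52% of all windows, was in none of the 6 windows. The same held for ACGTG, searched on both strands and present in 19.6% of all windows. These letters are the core of the site of the hypoxia-inducible factors in its form with A first. The form with G first, GCGTG, stands in the windows of Hspb3 and of both Hspb6 starts and was not counted over all windows. The TATA letters TATAAA, in 13.6% of all windows, stood from -11 to -6 in Hspb3 and from -29 to -24 in the second Hspb6 window. A match of letters is a description and shows neither binding nor use.

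In control cultures the RNAs of the family spanned a wide range per length of exon. Cryab was highest at 419 ± 2.58 CPM per kilobase (SD, n = 3), followed by Hspb7 at 359.9 ± 36.7, Hspb1 at 173 ± 6.60 and Hspb2 at 91.6 ± 8.95 CPM per kilobase. Hspb8 came next at 64.0 ± 0.642, then Hspb6 at 26.3 ± 2.54 and Hspb3 at 12.7 ± 0.972 CPM per kilobase. No neighbours in this order overlapped among the control libraries. In hypoxia the order on the same scale was Hspb1 at 1314 ± 140, Cryab at 413 ± 34.7, Hspb8 at 72.0 ± 9.02, Hspb7 at 40.1 ± 4.18, Hspb6 at 14.6 ± 2.12, Hspb2 at 12.8 ± 2.00 and Hspb3 at 0.370 ± 0.513 CPM per kilobase. There Hspb6 and Hspb2 overlapped and the other neighbours did not. In hypoxia + rSRGN the order was Hspb1 at 1512 ± 47.0, Cryab at 448 ± 16.9, Hspb8 at 84.2 ± 1.85, Hspb7 at 62.2 ± 1.46, Hspb2 at 15.6 ± 2.18, Hspb6 at 12.9 ± 0.365 and Hspb3 at 0.777 ± 0.124 CPM per kilobase, and no neighbours overlapped.

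**Figure D1:**
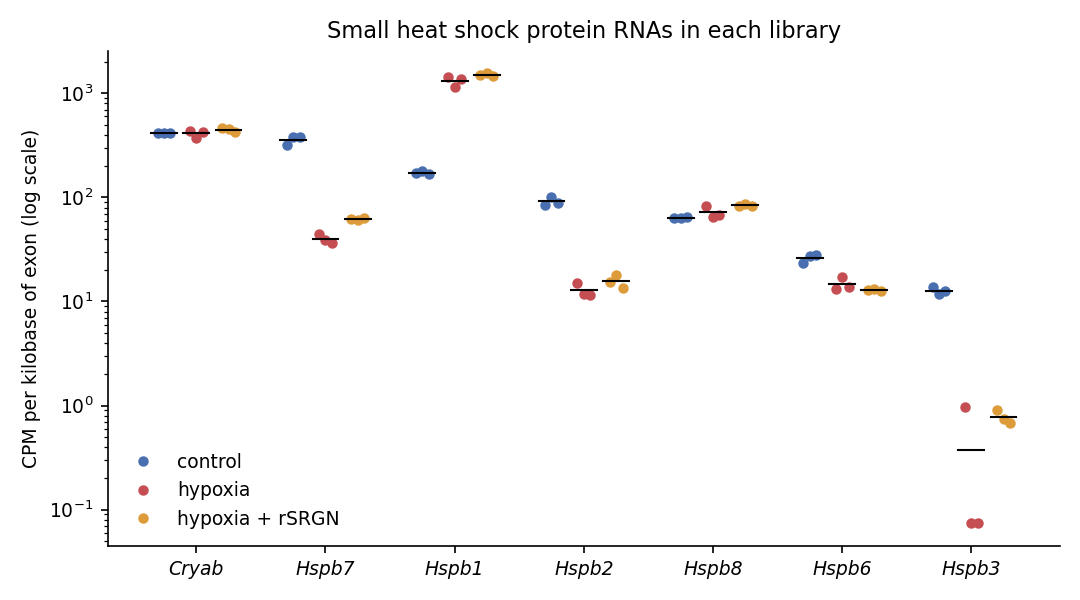
Level of each of the 7 small heat shock protein RNAs in each library, in CPM per kilobase of exon on a log axis, with libraries as points coloured by group and group means as bars. Hspb1 rises from 173 in control to 1314 in hypoxia, Hspb7, Hspb2 and Hspb3 lie far lower in both hypoxic groups than in control, and a single hypoxia library of Hspb3 stands above the other two.

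Against control, hypoxia left the family split. Hspb1 rose, Hspb2, Hspb3, Hspb6 and Hspb7 fell, and Hspb8 and Cryab were not called. With edgeR's quasi-likelihood test, adjusted p below 0.05 and at least 1.5-fold, 1 of the 7 was called higher, beside 26.4% of all genes tested, and 4 were called lower, beside 25.1%. The levels of hypoxia and control did not overlap for 6 of the 7 genes, beside 73% of all genes. The median log2 change of the 7 was -0.85, beside 0.0537 over all genes tested. Calls were thus frequent among all genes in both directions, and the members are described gene by gene.

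Hspb1, known as Hsp25 in mouse and Hsp27 in human, is a stress-induced chaperone that binds actin filaments and is phosphorylated by the kinase MK2. It spans 135887919 to 135889563 of chromosome 5, plus strand, with 1031 bases of exon. It stood at 176, 186 and 173 CPM in the control libraries and at 1467, 1192 and 1405 CPM in hypoxia. Every hypoxia library was far above every control library. The log2 change was 2.93 (SE 0.09, 95% interval 2.75 to 3.10), a 7.60-fold rise, with an adjusted p of 9.84e-18 by edgeR's quasi-likelihood test.

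Cryab encodes αB-crystallin, a chaperone of desmin and titin that is abundant in heart muscle, and mutations in it cause a desmin-related myopathy. It spans 50751325 to 50756636 on the plus strand of chromosome 9. Its level was 615, 621 and 621 CPM in control and 649.7, 552 and 629.8 CPM in hypoxia. The hypoxia libraries lay on both sides of the control libraries. The log2 change was -0.02 (SE 0.07, adjusted p = 0.821 by edgeR), with a 95% interval of -0.17 to 0.13, which holds changes of less than 1.5-fold only. Its sign turned to 0.05 when libraries were scaled by their size alone and when hypoxia replicate 2 was left out.

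Hspb8, or Hsp22, is the partner of the co-chaperone Bag3 in the disposal of damaged filamin by autophagy. Its gene spans 116408491 to 116422864 of chromosome 5, minus strand. It was found at 125, 124 and 126 CPM in control and at 160.4, 128 and 133 CPM in hypoxia. All 3 hypoxia libraries were above the 3 control libraries, though replicate 1 was well above the others. The log2 change of 0.17 (SE 0.08) had a 95% interval of 0.01 to 0.33 and an adjusted p of 0.0605 by edgeR, so that no change was called. Without hypoxia replicate 1 the difference was 0.06. Its adjusted p lay between 0.00745 and 0.488 over the alternatives and was below 0.05 in 3 of 19, with library size alone (0.01), without hypoxia replicate 2 (0.00745) and without hypoxia replicate 3 (0.0372), with no change reaching 1.5-fold.

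Hspb7, the cardiovascular heat shock protein, is found in heart and skeletal muscle and binds filamin C. It spans 141420779 to 141425311 on the plus strand of chromosome 4, with 2769 bases of exon. Its RNA stood at 879, 1058 and 1053 CPM in control and at 124, 109 and 101 CPM in hypoxia. No hypoxia library came near a control library, and the group mean in hypoxia was 111 ± 11.6 CPM against 996 ± 102 CPM (SD, n = 3). The log2 change of -3.16 (SE 0.09), an 8.96-fold fall, had an adjusted p of 8.46e-18 by edgeR.

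Hspb2 and Hspb3 encode partners that form a complex in differentiated muscle, and Hspb2 also binds the kinase Dmpk. Hspb2 was at 70.2, 84.7 and 74.2 CPM in control and at 12.6, 9.94 and 9.56 CPM in hypoxia. The groups were well apart, and the log2 change was -2.83 (SE 0.12, adjusted p = 4.77e-15 by edgeR). Hspb3, a single exon of 781 bases on chromosome 13 between 113662896 and 113663676, had 240, 206 and 202 fragments in the control libraries. In hypoxia it had 14, 1 and 1 fragments, so almost all of its hypoxia counts came from replicate 1. The levels were 10.8, 9.30 and 9.76 CPM in control and 0.752, 0.0578 and 0.0579 CPM in hypoxia. The log2 change was -5.02 (SE 0.40, 95% interval -5.88 to -4.23) with an adjusted p of 1.49e-10 by edgeR, and -7.28 without hypoxia replicate 1. The size of the fall of Hspb3 thus rested on 1 library, and its direction and call did not.

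Hspb6, or Hsp20, is phosphorylated by protein kinase A and is found in heart and smooth muscle. It spans 30552178 to 30555443 of chromosome 7, plus strand, and 122 of its 2299 exon bases (5.31%) also belong to Proser3 on the other strand. Its exons also share 77 bases (3.35%) with the miRNA gene Gm38670 on the same strand and 3 bases with Lin37 on the other. Hspb6 RNA stood at 53.7, 63.4 and 64.2 CPM in control and at 30.4, 39.2 and 31.3 CPM in hypoxia. All hypoxia libraries were below all control libraries, by less than for the other genes that fell. Hspb6 changed by -0.85 on the log2 scale (SE 0.10, adjusted p = 1.44e-07 by edgeR), which leaves 55.6% of the control level.

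**Figure D2:**
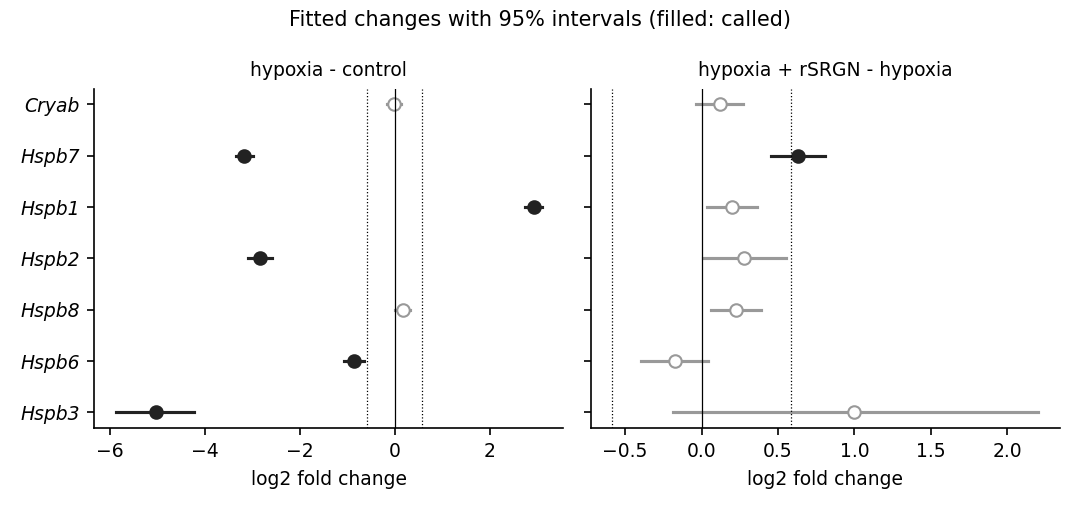
Fitted log2 fold change of each RNA for hypoxia minus control (left) and hypoxia + rSRGN minus hypoxia (right), as points with 95% intervals, filled where called, with the limit of 1.5-fold in either direction as dotted lines. The panels have different horizontal scales. Hspb7 is the one filled point on the right, and the wide interval of Hspb3 there, -0.18 to 2.20, spans 0.

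Hspb2 and Cryab are neighbours on opposite strands of chromosome 9, so that their counts depend on how fragments were assigned between them. Hspb2 spans 50751078 to 50752354 on the minus strand. An annotated exon of Cryab transcripts, from 50751325 to 50751576, lies within an exon of Hspb2, and these 252 bases are 30.2% of the exon bases of Hspb2 and 17.04% of those of Cryab. The counting used no strand and left out fragments that fit both genes, so the levels of both are uncertain to that extent, Hspb2 more than Cryab. The log2 ratio of Cryab to Hspb2 fragments was 3.13, 2.88 and 3.07 in control, 5.68, 5.79 and 6.04 in hypoxia, and 5.72, 5.50 and 5.81 in hypoxia + rSRGN. The ratio was higher in every hypoxic library than in every control library, and the hypoxic groups overlapped. Hypoxia and control differed by 2.81 on this scale, with p = 0.1 in a two-sided exact permutation test, the smallest p that 3 against 3 libraries allow. The next genes on either side of the pair were 2310030G06Rik, which fell (log2 change -0.93), and 1110032A03Rik, at 0.20 and not called.

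The makeup of the family differed between control and hypoxia. The 7 RNAs summed to between 1929 and 2146 CPM in control, between 2030 and 2444 CPM in hypoxia and between 2528 and 2667 CPM in hypoxia + rSRGN. Per kilobase of exon the sums were 1089 to 1187 in control, 1664 to 2018 in hypoxia and 2072 to 2197 CPM per kilobase in hypoxia + rSRGN. Control and hypoxia overlapped on the scale of CPM and not per kilobase, where no groups overlapped. As a share of the sum per kilobase, Hspb1 made up 15.1 ± 0.633% of the family in control and 70.3 ± 0.784% in hypoxia (SD, n = 3). Cryab went from 36.6 ± 1.42% to 22.1 ± 0.346%, and Hspb7 from 31.3 ± 1.92% to 2.16 ± 0.240%. The share of Hspb2 was 7.98 ± 0.499% in control and 0.690 ± 0.0802% in hypoxia. Those of Hspb8, Hspb6 and Hspb3 were 5.59, 2.29 and 1.12% in control and 3.85, 0.797 and 0.0206% in hypoxia. In each case the groups did not overlap, with p = 0.1 in the two-sided exact permutation test, the smallest possible. For Cryab and Hspb8 the smaller share stood beside a level that was not called lower. With rSRGN the shares were 70.8 ± 0.411% for Hspb1, 21.0 ± 0.451% for Cryab, 3.95 ± 0.0688% for Hspb8, 2.92 ± 0.154% for Hspb7, 0.730 ± 0.0808% for Hspb2, 0.606 ± 0.00228% for Hspb6 and 0.038 ± 0.00573% for Hspb3. Against hypoxia alone the libraries overlapped for 4 of the 7, Hspb1, Hspb2, Hspb3 and Hspb8, with exact permutation p between 0.4 and 0.9. They did not overlap for Hspb7, higher by 0.757 percentage points, for Cryab, at -1.15, and for Hspb6, at -0.191, each with p = 0.1 in the exact permutation test. With a library left out, the difference of Hspb6 ranged from -0.262 to -0.0765 percentage points. Without division by gene length the share of Hspb8 was higher in hypoxia than in control by 0.145 percentage points.

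**Figure D3:**
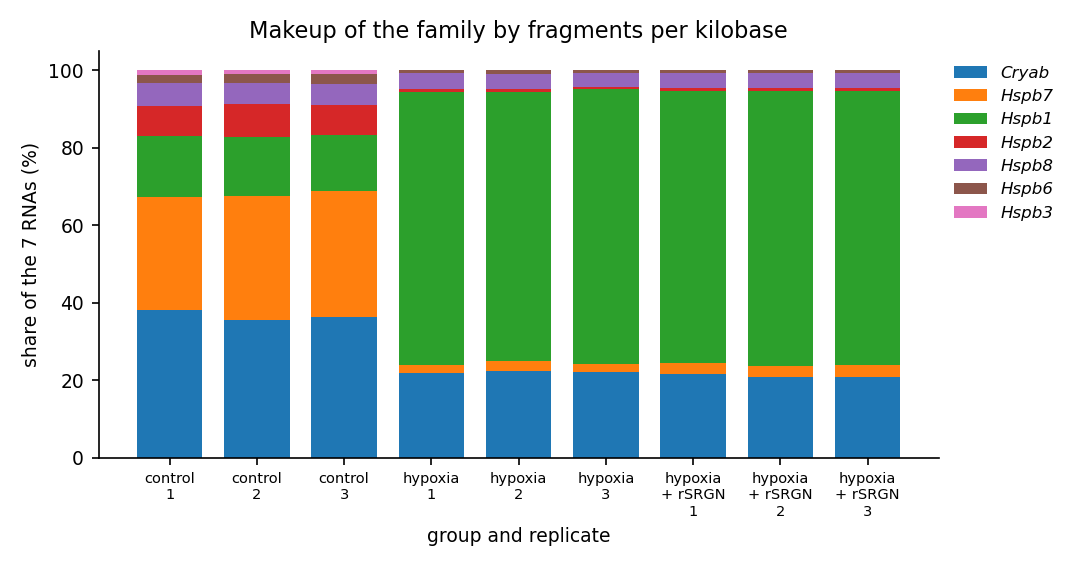
Share of each RNA in the sum of the 7, in percent of fragments per kilobase, as stacked bars for each library. Hspb1 fills 70.3% on average in hypoxia against 15.1% in control, and the Hspb7 and Hspb2 layers are thin in the hypoxic libraries.

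Read against the cardiomyocyte markers of the same libraries, 6 of the 7 RNAs stood higher in hypoxia than in control, beside 95.8% of all genes tested, and Hspb3 lower, beside 0.829%. The markers fell, so that an RNA without a change in CPM stands higher on this scale, and the median over all genes was 3.77. The difference between a gene's log2 CPM and the mean log2 CPM of the 10 markers was taken in each library, which frees it from the scaling between libraries. It was higher in hypoxia than in control by 6.64 for Hspb1, 3.89 for Hspb8, 3.70 for Cryab and 2.87 for Hspb6. The values of Hspb8 and Cryab are thus near that of all genes and restate that neither was called in CPM. Of the genes that fell in CPM, Hspb6 was thus higher relative to the markers, as were Hspb2 by 0.89 and Hspb7 by 0.56. Hspb3, which also fell in CPM, differed by -2.06. Each of these had p = 0.1 in the two-sided exact permutation test, which is the smallest it can give (adjusted p = 0.1 over the 7). The value of Hspb3 rests on single fragments in hypoxia replicates 2 and 3, at -11.42 and -10.90, while hypoxia replicate 1 at -8.43 lay just below the control libraries at -8.30 to -7.97. It was -2.97 without hypoxia replicate 1, -1.48 without hypoxia replicate 2 and -1.36 with a prior count of 2. Hspb7 therefore moved most nearly with the markers, whose log2 changes lay between -4.95 and -2.40. Whether fibroblasts, whose markers rose, supplied part of the Hspb1, Cryab or Hspb8 RNA was not tested.

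Adding rSRGN during hypoxia changed 1 of the 7 past both limits, Hspb7, which rose, and none fell. Among all genes tested 2.27% were called higher and 0.859% lower in this comparison. Hspb7 was at 173, 168 and 176 CPM with rSRGN, above the 124, 109 and 101 CPM of hypoxia alone and below the 879 CPM of the lowest control library. The log2 change was 0.63 (SE 0.09, 95% interval 0.45 to 0.81), a 1.55-fold rise, with an adjusted p of 8.08e-05 by edgeR. It lies close to the fold limit, a log2 change of 0.585, and without hypoxia replicate 3 it was 0.57, below the limit, with an adjusted p of 0.000328. Over the alternatives its adjusted p lay between 4.82e-15 and 0.00104. The cardiomyocyte markers moved with it, since 9 of 10 were called higher, with a median log2 change of 0.77. Among the markers of other cells, 1 of 9 of fibroblasts was called lower (Tcf21, -0.76), 1 of 6 of endothelium higher (Kdr, 0.93) and 1 of 6 of smooth muscle and pericytes higher (Rgs5, 0.78). Some markers passed the adjusted p of edgeR and stayed short of the fold limit. These were Ddr2 of fibroblasts (0.35, adjusted p = 0.00339), and of smooth muscle and pericytes Pdgfrb (0.285, adjusted p = 0.00765) and Acta2 (-0.3, adjusted p = 0.0142). Of the macrophage markers Lyz2 was so at 0.31 (adjusted p = 0.034), and no other macrophage marker passed the adjusted p. Relative to the mean of the 10 cardiomyocyte markers Hspb7 differed by -0.12 (exact permutation p = 0.7, adjusted p = 0.7), with overlap between the groups. On the same scale, with rSRGN against hypoxia, Hspb1 differed by -0.55, Hspb2 by -0.48, Hspb6 by -0.93, Hspb8 by -0.52 and Cryab by -0.64. The groups did not overlap for these 5, with rSRGN lower, beside 73% of all genes tested and a median over all genes of -0.78 on this scale. Each had p = 0.1 in the exact permutation test, the smallest possible (adjusted p = 0.14). Without hypoxia replicate 3 Hspb1 was at -0.32 and Cryab at -0.41. Hspb3 differed by 1.04 (exact p = 0.4, adjusted p = 0.467), and leaving out hypoxia replicate 1 gave 1.95 and leaving out hypoxia replicate 2 gave 0.46.

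No other member was called. Hspb1 was at 1551, 1611 and 1515 CPM with rSRGN, above all 3 libraries of hypoxia alone, with a log2 difference of 0.20 (95% interval 0.04 to 0.37, adjusted p = 0.0844 by edgeR). Hspb8 was at 162, 168 and 162 CPM, also above all 3, with a difference of 0.23 (95% interval 0.06 to 0.39, adjusted p = 0.0519). For Cryab, at 680.3, 674 and 634 CPM, the difference was 0.12 (interval -0.03 to 0.27, adjusted p = 0.298). Hspb2 differed by 0.28 (0.01 to 0.55, adjusted p = 0.156) and Hspb6 by -0.18 (-0.39 to 0.04, adjusted p = 0.273). Single libraries moved these small differences. Without hypoxia replicate 2 Hspb1 was at 0.12, Cryab at 0.05 and Hspb6 at -0.05. Hspb2 was at 0.17 without hypoxia + rSRGN replicate 2 and at 0.42 without hypoxia replicate 1, where its adjusted p was 0.039, within a range of 0.039 to 0.527 over the alternatives. Levels did not overlap, with rSRGN higher, for Hspb1, Hspb7 and Hspb8, 3 of 7 beside 16.5% of all genes in that direction. The median log2 difference of the 7 was 0.23, beside -0.0289 over all genes. The intervals of Hspb1, Hspb2, Hspb6, Hspb8 and Cryab lay within the limit of 1.5-fold.

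Hspb3 had 12, 12 and 10 fragments with rSRGN, against 14, 1 and 1 in hypoxia alone. The log2 difference of 1.00 had an interval of -0.18 to 2.20 and an adjusted p of 0.254 by edgeR, so that a change was not detectable at these counts. Without hypoxia replicate 1 it was 3.25 with an adjusted p of 0.00199, and without hypoxia replicate 2 or hypoxia replicate 3 it was 0.53. The call of this gene thus depended on 1 library. Over the alternatives the adjusted p of Hspb3 lay between 0.00199 and 0.612.

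Compared with control, which shares libraries with the first comparison, hypoxia + rSRGN called the family in the same way, 1 of 7 higher and 4 lower, beside 24.1% and 24.7% of all genes. The log2 change was 3.13 for Hspb1 (adjusted p = 7.09e-18 by edgeR), -2.53 for Hspb7, -2.55 for Hspb2, -4.03 for Hspb3 and -1.02 for Hspb6, with the largest adjusted p of these at 8.74e-09. Hspb8 differed by 0.40 (SE 0.08) with an adjusted p of 0.000129, short of the fold limit, and its 162 to 168 CPM lay above the 124 to 126 CPM of control. Cryab differed by 0.10 (95% interval -0.05 to 0.25, adjusted p = 0.237). Its rSRGN libraries lay above all control libraries by a small margin.

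HSF1 and its cytosolic chaperone targets, the partners that refold what Hspb1 holds, mostly rose in hypoxia. Of 15 genes, 12 were called higher, 0 lower and 3 not called, with a median log2 change of 1.12. Over all genes tested 26.4% were called higher and 25.1% lower. Hspa1a and Hspa1b, the inducible Hsp70 genes, were at 2.85 and 8.48 CPM in control and at 3702 and 5346 CPM in hypoxia, log2 changes of 10.34 and 9.30. They are near-identical copies, and how fragments were split between them is uncertain. Hsph1, a nucleotide exchange factor of Hsp70, rose by 3.96 and Dnajb1, its J-domain partner, by 3.94 on the log2 scale. Hsp90aa1, the inducible Hsp90, rose by 2.01 and Hspa8, the constitutive Hsc70, by 1.12. The factor's own RNA, Hsf1, rose by 0.94, whereas Hsf2 was at -0.06 and not called. The log2 change of Hspb1, 2.93, lay between those of Hsp90aa1 and Dnajb1. With rSRGN none of the 15 was called in either direction against hypoxia, with a median of 0.0965, although 4 of them passed the adjusted p alone. These were Hspa1b (log2 difference 0.47, adjusted p = 0.000851 by edgeR), Hspa4l (0.39, adjusted p = 0.0041), Hspa1a (0.34, adjusted p = 0.00766) and Hsp90aa1 (0.24, adjusted p = 0.0289). That threshold alone was passed in the upward direction by 10.5% of all genes, and among the small heat shock proteins by Hspb7. Hspb8 passed it in 7 of 19 alternatives and Hspb1 in 4 of 19, DESeq2 (adjusted p = 0.0162 and 0.0187) and RLE scaling (0.0287 and 0.0487) among them, both without reaching the fold limit.

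The genes of autophagy around Bag3, the route in which Hspb8 acts, were less uniform. Of 8 genes, 2 rose, 1 fell and 5 were not called in hypoxia, with a median of 0.37. Among all genes tested, 26.4% rose and 25.1% fell by the same limits. Bag3, the co-chaperone that links Hspb8 to Hsp70, was at 158 CPM in control and 511 CPM in hypoxia, a log2 change of 1.69 (SE 0.08, adjusted p = 1.14e-14 by edgeR), while Hspb8 itself was at 0.17. The other that rose was Hspa8, which is also in the list above. Synpo2, a Z-disc protein that joins the route to autophagosome formation, fell by 1.17. Sqstm1, the autophagy receptor p62, was at 0.58 and just short of the fold limit. None of the 8 was called with rSRGN against hypoxia, and Bag3 stood at 0.30 (adjusted p = 0.00774).

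Genes of myofibrillar myopathy, several of which encode proteins that small heat shock proteins bind, went in both directions. Of the 8 such genes other than Cryab, Myot was too low to test, 4 of the 7 tested fell, 1 rose and 2 were not called in hypoxia, with a median of -1.42. The shares over all genes tested were 25.1% lower and 26.4% higher. On the log2 scale the change was -3.59 for Ttn, titin, -3.55 for Ldb3, a Z-disc protein, and -2.82 for Des, desmin. Flnc, filamin C, the partner of Hspb7, changed by -1.42, from 561 to 209.8 CPM. The gene that rose was Bag3, and those not called were Fhl1 at -0.28 and the co-chaperone Dnajb6 at 0.28. With rSRGN 3 of the 7 were called higher than in hypoxia, Ttn by 0.79, Ldb3 by 0.71 and Des by 0.62, and Flnc stood at 0.50, short of the fold limit. Cryab, which binds desmin and titin, did not share these changes in either comparison, at -0.02 and 0.12.

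Among 9 kinases of the p38-MK2 route, which phosphorylates Hspb1, 2 rose, 2 fell and 5 were not called in hypoxia, with a median of 0.37. These counts stand beside 26.4% called higher and 25.1% called lower among all genes tested. Map2k3, an activator of p38, rose by 1.05 and Mapk13, a p38 isoform at 1.78 CPM in control, by 1.40. Mapkapk2, which encodes MK2, fell, with a log2 change of -0.96, as did Map2k6 with -0.90. Mapk14, the main p38 of the heart, was at -0.20 and not called. Dmpk, the kinase bound by Hspb2, fell by 1.62 on the log2 scale. None of the 9 kinases was called with rSRGN against hypoxia, nor was Dmpk. Phosphorylation was not measured.

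**Figure D4:**
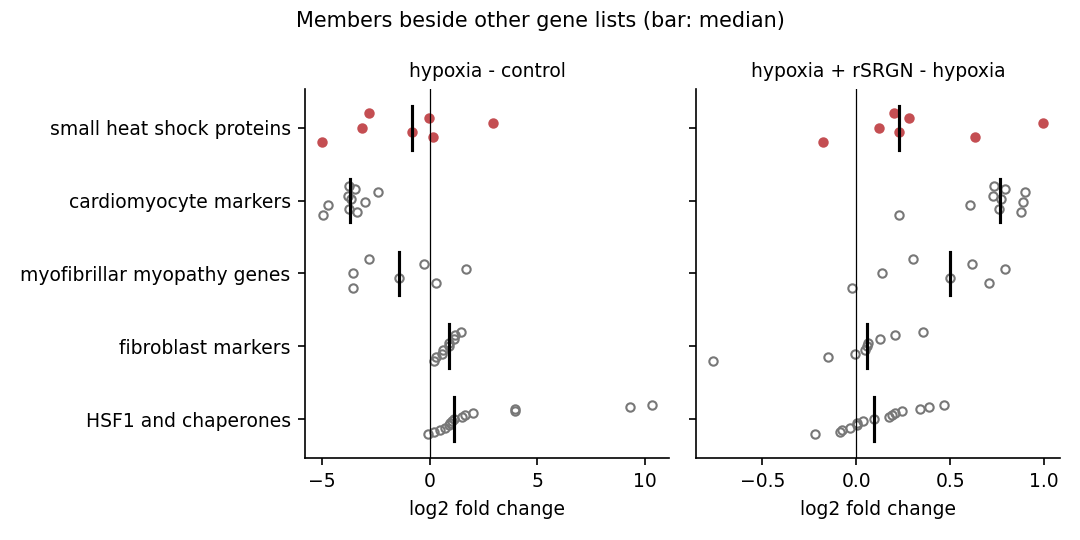
Log2 fold change of each tested gene for hypoxia minus control (left) and hypoxia + rSRGN minus hypoxia (right), with the members in red, 4 other lists in grey and each median as a bar. The panels have different horizontal scales. On the left the cardiomyocyte markers lie between -4.95 and -2.40 and the chaperone list mostly above 0, with members on both sides of 0.

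Of 4 other genes listed beside the family, Cryaa, Hspb9 and Odf1, known from lens and testis, had between 0 and 7 fragments in a library and were not tested. Hspb11, an intraflagellar transport protein listed for its symbol, was at 8.97 CPM in control and 17.7 CPM in hypoxia, a log2 change of 0.98 (adjusted p = 3.22e-07 by edgeR).

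The genes whose log2 CPM over the 9 libraries was most like that of each member were sought among 9750 genes with a mean of at least 10 CPM. These values fall into groups, so Pearson's r here is mostly the likeness of group levels and is given as a description. Hspb7 was most like Fhod3, a formin of the sarcomere (r = 0.9995), which had log2 changes of -3.50 in hypoxia and 0.76 with rSRGN against hypoxia. The next was Sptb, a spectrin (r = 0.9993). Hspb1 was most like Actn1, an actin cross-linker, and Plau, the urokinase gene (both r = 0.999), which changed less, by 1.28 and 1.20 on the log2 scale. Hspb2 was most like Zfp629 (r = 0.9991) and Mcrip2 (r = 0.998), Hspb3 like Cdc14b (r = 0.9955) and Tshz1 (r = 0.9934), and Hspb6 like Aifm1 (r = 0.9934). Hspb8 and Cryab, which varied least between groups, had weaker best matches, Thbd (r = 0.9702) and Trim8 (r = 0.9665) for Hspb8 and Marf1 (r = 0.876) and Aff3 (r = 0.8745) for Cryab.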

How the data were processed

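The authors deposited raw fragment counts per gene from 9 poly(A)-enriched, paired-end libraries. Per the file headers, featureCounts 2.0.1 counted exons by gene on the GENCODE M25 annotation (GRCm38) with no strand option, and by its default left out fragments that fit several genes. The submitters' processing notes name HISAT2, featureCounts and mm10. The paper that names these data describes other samples, so only its style was used. All columns of counts were used (0 left unused). Groups and replicate numbers came from the labels.

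edgeR 4.0.16 (R 4.3.3) fitted group means to all 9 libraries, after the filterByExpr filter and TMM scaling. Comparisons used its quasi-likelihood test, Benjamini-Hochberg adjusted over the 16762 genes tested, and calls needed both an adjusted p below 0.05 and a change of at least 1.5-fold. SEs were derived from the F statistic, and intervals are 95%. CPM used library sizes scaled by TMM. Ratios and shares were compared with two-sided exact permutation tests. The fit was tested on simulated data, where 75 to 76.5% of 200 genes changed 2-fold were called, by comparison. Between 4 and 9 unchanged genes were called there, and 95 to 95.4% of the intervals held the true value. The members, lists, tests and the rule for named genes (the members, the fixed lists, the nearest genes and the 2 genes most like each member) were chosen with earlier results of these data known. For Hspb6 1 such gene is not reported here. The alternatives were DESeq2 1.42.0, other scalings, filters and call limits, a replicate block, and each library left out. A scaling without mitochondrial, rRNA and heat shock genes was added after seeing the data. Replicates differed by more than counting noise, with a chi-square per degree of freedom of at least 3.74.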

Additional observations from a re-analysis of the deposited data

How the results depend on the processing

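The numbers of members called in hypoxia and in hypoxia + rSRGN against control were 5 with each library left out in turn. Of 57 alternative counts of members called, 55 were within 1.5 times the main count. The number called in hypoxia + rSRGN against hypoxia ranged from 0 to 2 with a library left out, being 0 without hypoxia replicate 3 and 2 without hypoxia replicate 1. Of 396 alternative fold changes of the members, 391 kept direction and call. Cryab in hypoxia against control turned to 0.0511 with library size alone and ranged from -0.0668 to 0.0454 with a library left out. Hspb8 in hypoxia + rSRGN against control, 0.40, was called with no fold limit. Of 357 alternative values of ratios and shares, 351 kept direction. With a library left out, Hspb7 relative to the cardiomyocyte markers in hypoxia + rSRGN against hypoxia ranged from -0.19 to 0.0123, the share of Hspb2 from -0.0051 to 0.0788 percentage points (-0.0018 without hypoxia + rSRGN replicate 2) and that of Hspb8 from -0.0613 to 0.202. The turn of Hspb7 and Hspb8, and -0.0051 for Hspb2, came without hypoxia replicate 3. Without division by length the share of Hspb8 was higher by 0.145 in hypoxia and by 0.26 in hypoxia + rSRGN than in control. Hspb3 could not be tested with at least 10 counts in every library. The same-numbered libraries did not deviate together (correlations of -0.0374 to 0.0215), so the numbers were not taken as pairs. With the replicate block 5, 1 and 5 members were called in the comparisons of hypoxia with control, of hypoxia + rSRGN with hypoxia and of hypoxia + rSRGN with control, and no call of a member changed. Over all genes, 525 were called in hypoxia + rSRGN against hypoxia, against 2790 with no fold limit, 899 with the unadjusted p and 321 without hypoxia replicate 3. Of those 525, 72.6% were higher, and 66.9% with library size alone, 80.7% with RLE and 81.1% with DESeq2. Hspb3, with 1 to 14 fragments in a hypoxia library, had the widest intervals among the members, and the causes of these changes were not tested.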
